A study of Mus musculus with 9 samples.

Results

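The genes of the MHC class II presentation pathway were followed in whole skin of transgenic and control mice 30 days after birth. The 9 members were H2-Aa, H2-Ab1, H2-Ea, H2-Eb1, H2-DMa, H2-DMb2, H2-Oa, Cd74 and Ciita. A probe set, the group of short oligonucleotides that reads a transcript on an Affymetrix mouse array, was taken as a member where the array annotation named 1 of these genes and no other. That gave 15 of the 22626 probe sets tested, with 3 for H2-Ab1, 3 for H2-Ea, 2 for H2-Aa, 2 for Ciita and 1 for each of the other genes. Another 2 probe sets that named H2-DMb2 together with a further gene were left out. Every H2 member lies on chromosome 17, Cd74 on chromosome 18 and Ciita on chromosome 16.

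The study examined mice with a constitutively active Akt, a kinase of the insulin and growth factor pathway, for defects of skin and hair and for changes in BMP signalling. It compared 4 genotypes on 9 arrays, each hybridised with a pool of RNA from skin. The control mice (LC) had 3 arrays, and the transgenic mice L60, L84 and LA had 2 each. All mice had the same mixed background of C57BL, DBA and FVB strains, all were 30 days old, and 30 mg of skin was used. The labels do not give the promoter that drives the transgene, how the 3 lines differ, how many mice went into a pool or whether pools shared mice, so the p-values below measure the spread between these pools. They also do not give the H2 haplotype of any mouse. In a mixed C57BL, DBA and FVB background that haplotype can differ between lines.

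Class II molecules are pairs of an alpha and a beta chain that show peptides, mostly from proteins taken up from outside the cell, to CD4 T cells. In the mouse the H2-A molecule is made of the H2-Aa and H2-Ab1 chains and the H2-E molecule of the H2-Ea and H2-Eb1 chains. Cd74, the invariant chain, fills the groove of new class II molecules and guides them to endosomes, where H2-DM exchanges its last fragment for a peptide and H2-DO, to which H2-Oa contributes the alpha chain, holds H2-DM back. Ciita is the coactivator that switches the whole group on. In skin the steady source of class II is the Langerhans cell of the epidermis together with dermal dendritic cells and macrophages, and interferon gamma can induce it in keratinocytes.

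Class II promoters share an X box and a Y box, bound by RFX and NF-Y, onto which Ciita is recruited. RefSeq promoter windows (assembly GRCm38.p6, 300 bases around a transcription start) were held for 5 of the 9 members, in 6 windows. The letters TGATTGG, the core of a Y box, stood in a window of 4 of these 5 genes, against 7.82% of the 32851 windows of all genes. The letters GCAAC, part of an X box core, stood in 35.2% of all windows. GCAAC followed by TGATTGG on the same strand, with 20 to 30 letters between, occurred in 34 windows (0.103%), among them those of H2-Aa, H2-Eb1 and H2-Oa. Both strands were searched, and the motifs do not overlap. The stretches are shown because H2-Aa and H2-Eb1, which moved in opposite directions in LA, carry the same arrangement. Capitals mark GCAAC and TGATTGG, and each stretch reads 5′ to 3′ on the strand of its gene, at chr17:34287844-34287923 (minus strand) for H2-Aa, chr17:34305756-34305835 (plus) for H2-Eb1, chr17:34092284-34092363 (plus) for H2-Oa and chr17:34145107-34145186 (plus) for H2-DMb2.
H2-Aa: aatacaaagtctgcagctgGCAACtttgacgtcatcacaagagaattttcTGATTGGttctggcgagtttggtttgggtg
H2-Eb1: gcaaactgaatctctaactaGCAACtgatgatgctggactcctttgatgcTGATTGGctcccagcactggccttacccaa
H2-Oa: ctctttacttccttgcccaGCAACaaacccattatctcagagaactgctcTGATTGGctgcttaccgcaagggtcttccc
H2-DMb2: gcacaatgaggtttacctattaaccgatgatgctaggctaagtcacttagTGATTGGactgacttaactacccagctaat

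The gap between the letter groups was 26 in H2-Aa, 25 in H2-Eb1 and 26 in H2-Oa. TGATTGG began 50, 61 and 45 bases before the start of those genes, and 92 before that of H2-DMb2, whose window held no GCAAC at that distance. Neither window of H2-DMa held TGATTGG. These matches are letters in a window and show no binding. Outside the members, 28 genes held the spaced pair, H2-Ob and H2-Eb2 among them, and 12 of the 28 were measured by 18 probe sets. H2-Ob and H2-Eb2 were not among the 12. Of the 18 probe sets, 1 was called in LA against LC, for Elavl2, where 1.14% of all probe sets were called. The median difference of the 18 was 0.12, against 0.22 over all probe sets.

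The deposited values are scores. Each probe set had been set to mean 0 and SD 1 over the 9 arrays, so a score says how far an array lies above or below that probe set's own mean, and neither a level nor a fold change can be recovered. Differences are given in SDs of the probe set, with their SE, from limma's linear model of the 4 groups, and calls were made where the p, adjusted by Benjamini and Hochberg over all 22626, lay under 0.05. With 9 arrays and 5 residual degrees of freedom, the number of arrays limits the precision. A score also cannot separate the amount of a transcript from how well the alleles of a pool match the oligonucleotides. That limit bears on the classical H2 genes in particular, which are highly polymorphic between strains. It was not tested.

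Most class II genes had their highest scores in LA. Of the 15 probe sets, 4 were called in LA against LC (26.7%, where 1.14% of all probe sets were called). H2-Aa, H2-Ab1 and Cd74 rose with 1 probe set each, and H2-Eb1 fell. Both LA arrays lay above all 7 others in 10 of the 15, against 8.95% of all probe sets, and below all 7 others in 2, against 7.6%. The 2 that lay below were H2-Eb1 and 1 of the 3 probe sets of H2-Ea. These patterns were picked after the values were seen and are descriptions. In whole skin, fewer cells of a type and less RNA per cell cannot be told apart.

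**Figure D1:**
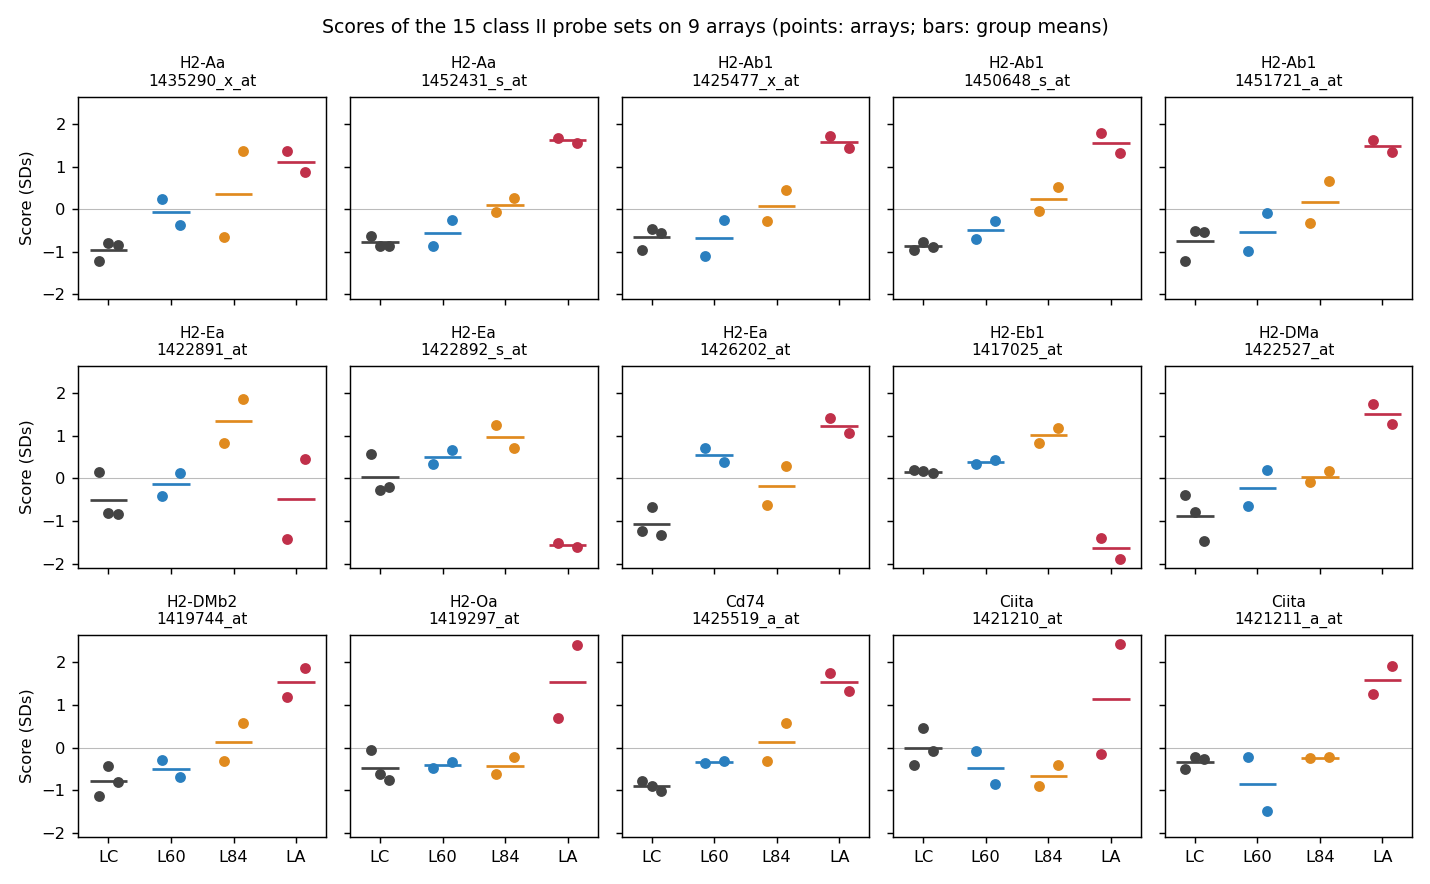
Score (SDs of the probe set over 9 arrays, vertical axis) of each of the 15 class II probe sets on every array, by genotype, with points for arrays and bars for group means. LA is the highest group for H2-Aa, H2-Ab1, H2-DMa, H2-DMb2, H2-Oa and Cd74, while H2-Eb1 and H2-Ea 1422892_s_at have both LA arrays at the bottom (-1.4 and -1.88 for H2-Eb1).

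The chains of the H2-A molecule gave one picture. H2-Aa, the alpha chain, read by 1452431_s_at, scored -0.62, -0.86 and -0.85 on the LC arrays, -0.87 and -0.24 in L60, -0.07 and 0.27 in L84, and 1.68 and 1.56 in LA. LA stood clear of every other array, L84 lay above the controls, and L60 overlapped them. H2-Aa rose in LA by 2.40 ± 0.224 (SE, adjusted p = 0.027), while L84 differed from LC by 0.88 ± 0.224 (adjusted p = 0.315) and L60 by 0.22 (95% interval -0.36 to 0.80). The second H2-Aa probe set, 1435290_x_at, scored -1.22, -0.80 and -0.84 in LC, 0.25 and -0.37 in L60, -0.65 and 1.38 in L84, and 1.37 and 0.87 in LA. All 6 transgenic arrays lay above the controls, and the L84 arrays lay far apart, with L84 2 at the level of LA. Its LA difference was 2.07 ± 0.644 and did not pass (adjusted p = 0.186).

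H2-Ab1, the beta chain of the same molecule, was read by 3 probe sets that ran together, with correlations over the 9 arrays of 0.969 to 0.99. On 1450648_s_at the scores were -0.95, -0.77 and -0.88 in LC, -0.69 and -0.28 in L60, -0.05 and 0.53 in L84, and 1.78 and 1.32 in LA. The 4 groups did not overlap and stood in the order LC, L60, L84, LA. H2-Ab1 rose in LA by 2.41 ± 0.25 on this probe set (adjusted p = 0.0331), and the L84 difference was 1.11 ± 0.25 (adjusted p = 0.262). On 1425477_x_at the scores were -0.95, -0.47 and -0.56 in LC, -1.10 and -0.24 in L60, -0.28 and 0.45 in L84, and 1.71 and 1.44 in LA. On 1451721_a_at they were -1.21, -0.51 and -0.53 in LC, -0.99 and -0.09 in L60, -0.31 and 0.66 in L84, and 1.63 and 1.35 in LA. L60 overlapped the controls on both, and LA lay above all other arrays on both. Their LA differences were 2.24 ± 0.369 (adjusted p = 0.0722) and 2.24 ± 0.452 (adjusted p = 0.0981). The suffix of a probe set name matters here: an _x_at set may bind related transcripts and an _s_at set may match several, so that H2-Aa and H2-Ab1 readings may take in other class II RNA.

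The chains of the H2-E molecule ran otherwise. H2-Eb1, the beta chain, scored 0.19, 0.18 and 0.12 in LC, 0.33 and 0.44 in L60, 0.84 and 1.19 in L84, and -1.40 and -1.88 in LA on its single probe set, 1417025_at. The groups did not overlap: L60 and L84 lay above the controls in that order, and LA lay far below all of them. H2-Eb1 fell in LA by 1.8 ± 0.174 (adjusted p = 0.0283), against differences of 0.85 ± 0.174 in L84 (adjusted p = 0.227) and 0.22 in L60 (95% interval -0.23 to 0.67). It was also the single member called in LA against L60, with a difference of -2.02 ± 0.191 (adjusted p = 0.0471). The LA minus L84 difference of -2.66 ± 0.191 did not pass (adjusted p = 0.0815).

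H2-Ea, the alpha chain partner of H2-Eb1, gave 3 different readings. C57BL mice carry a deletion in the H2-Ea promoter and make no E alpha chain, some other mouse strains carry a working gene, and the gene table of the C57BL/6J assembly lists H2-Ea as a transcribed pseudogene. On 1422892_s_at the scores were 0.58, -0.26 and -0.19 in LC, 0.35 and 0.68 in L60, 1.25 and 0.71 in L84, and -1.51 and -1.61 in LA. LA lay below all other arrays and L84 above all other arrays, as for H2-Eb1, with which the probe set correlated at 0.94 over the 9 arrays. Its LA difference was -1.61 ± 0.326 and did not pass (adjusted p = 0.0987). Among the H2-Ea probe sets only 1422892_s_at is an _s_at set, which may match several transcripts.

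The other H2-Ea probe sets did not share that pattern. On 1426202_at the scores were -1.24, -0.66 and -1.33 in LC, 0.71 and 0.39 in L60, -0.63 and 0.30 in L84, and 1.41 and 1.06 in LA. All 6 transgenic arrays lay above all controls, with LA highest. The differences of 2.31 ± 0.366 in LA (adjusted p = 0.0692) and 1.63 ± 0.366 in L60 (adjusted p = 0.843, 95% interval 0.69 to 2.57) did not pass. On 1422891_at the scores were 0.16, -0.81 and -0.84 in LC, -0.40 and 0.13 in L60, 0.84 and 1.87 in L84, and -1.41 and 0.46 in LA. L84 was highest, LA 1 was the lowest of the 9 and LA 2 came next after L84, so that the LA difference of 0.02 ± 0.716 became 0.95 without LA 1 and -0.92 without LA 2. Averaged over the 3 probe sets, H2-Ea differed by 0.24 in LA (adjusted p = 0.62 over 12393 genes), a value that hides opposite readings. With the alleles of the pools unknown, which H2-Ea reading follows the transcript was not tested.

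**Figure D2:**
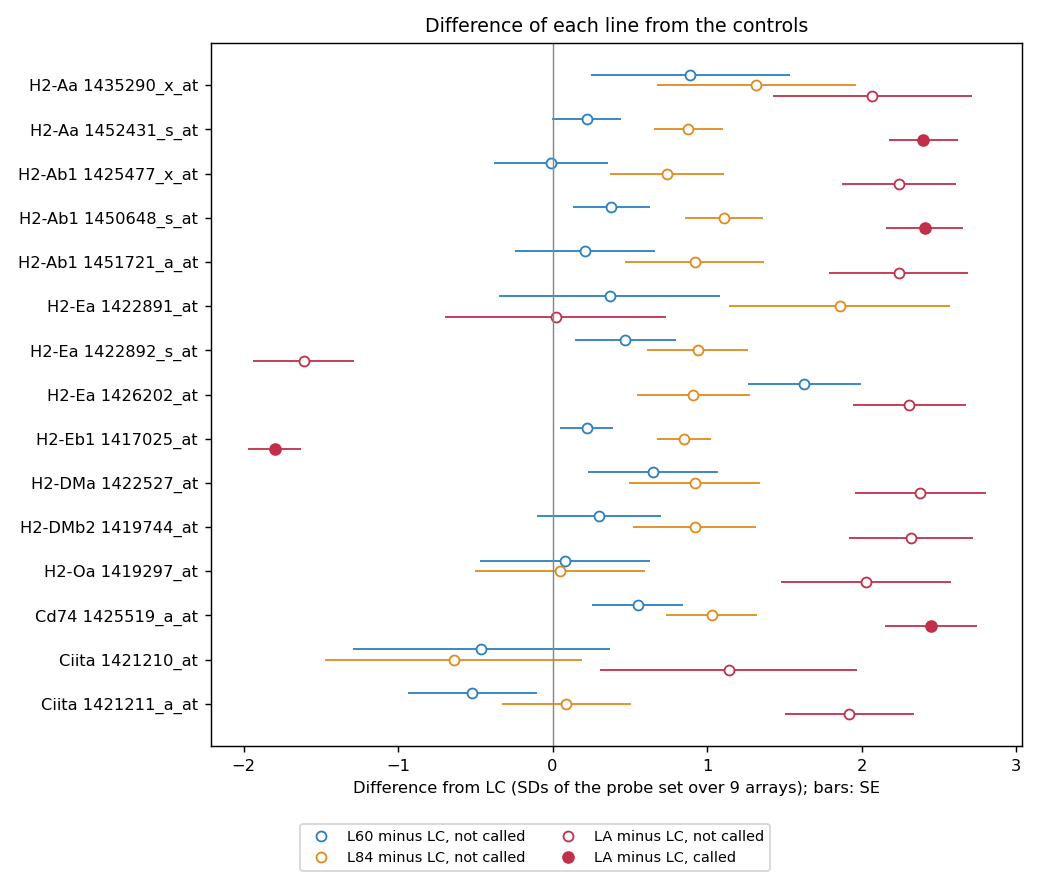
Difference of L60, L84 and LA from the controls (horizontal axis, SDs of the probe set over 9 arrays) for each class II probe set, with SE bars and filled points for called differences. The 4 filled points are all of LA: H2-Aa, H2-Ab1 and Cd74 at 2.40 to 2.45 and H2-Eb1 at -1.8.

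Cd74, the invariant chain, scored -0.78, -0.89 and -1.01 in LC, -0.37 and -0.31 in L60, -0.31 and 0.58 in L84, and 1.76 and 1.34 in LA. Every transgenic array lay above every control, L60 2 equalled L84 1 at the 2 decimals shown, and LA lay above all others. Cd74 rose in LA by 2.45 ± 0.295 (adjusted p = 0.0441). Its differences in L84, 1.03 ± 0.295 (adjusted p = 0.368), and L60, 0.55 (95% interval -0.20 to 1.31), did not pass.

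The peptide editors had their highest scores in LA as well, with no call. H2-DMa, the alpha chain of H2-DM, scored -0.39, -0.78 and -1.46 in LC, -0.65 and 0.19 in L60, -0.08 and 0.17 in L84, and 1.74 and 1.27 in LA. H2-DMb2, a beta chain of H2-DM, scored -1.13, -0.43 and -0.80 in LC, -0.30 and -0.68 in L60, -0.31 and 0.58 in L84, and 1.18 and 1.88 in LA. For both genes L84 lay above the controls, L60 overlapped them, and LA stood above all other arrays. Their LA differences were 2.38 ± 0.423 (adjusted p = 0.0815) and 2.32 ± 0.399 (adjusted p = 0.077). H2-Oa, the alpha chain of H2-DO, scored -0.06, -0.63 and -0.75 in LC, -0.47 and -0.34 in L60, -0.63 and -0.22 in L84, and 0.70 and 2.40 in LA. Here L60 and L84 lay within the range of the controls, and the LA arrays differed widely from each other. The LA difference of 2.03 ± 0.549 (adjusted p = 0.154) was 1.18 without LA 2 and 2.88 without LA 1.

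Ciita, the coactivator, was not called in any comparison. On 1421211_a_at it scored -0.49, -0.23 and -0.27 in LC, -0.22 and -1.48 in L60, -0.25 and -0.23 in L84, and 1.26 and 1.92 in LA. Both LA arrays lay above all others, and L60 2 was the lowest of the 9. The LA difference was 1.92 ± 0.418 (adjusted p = 0.11), and those of L84 and L60 were 0.09 and -0.52. On 1421210_at it scored -0.40, 0.45 and -0.08 in LC, -0.08 and -0.86 in L60, -0.90 and -0.41 in L84, and -0.16 and 2.43 in LA. Here LA 2 alone stood high and LA 1 lay within the controls. The difference of 1.14 (95% interval -0.99 to 3.28) became -0.15 without LA 2.

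Counted by line, LA differed from LC with 3 probe sets higher and 1 lower, and 13 of the 15 had an unadjusted p under 0.05, as had 19.8% of all probe sets. The median difference of the 15 was 2.24, against 0.22 over all probe sets. The groups did not overlap for 13 of the 15, where 46.4% of all probe sets did not overlap. Over all probe sets, 257 were called in LA against LC, and 130, 10 and 7 without LC 1, LC 2 and LC 3. The count of 4 members also changed with single arrays. Leaving out any LC array, 1, 2 or 3, or LA 2 brought the count to 0. Leaving out L60 1, L60 2 or LA 1 brought it to 1, and with L84 1 or L84 2 left out it was 4. With limma's moderated variance no probe set of the array was called in any comparison. The direction of the 4 held under every alternative, from 2.24 to 2.48 for H2-Aa, 2.18 to 2.64 for H2-Ab1, 2.23 to 2.66 for Cd74 and -2.04 to -1.56 for H2-Eb1.

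In L84 no member was called against LC, where 0.212% of all probe sets were, and 6 of the 15 had an unadjusted p under 0.05, as had 10.3% of all. Their median difference was 0.92, against -0.01 over all probe sets, and 14 of the 15 differences were positive. Both L84 arrays lay above all controls in 12 and below them in 1, while 26.1% of all probe sets did not overlap. L84 2 scored above L84 1 in 14 of the 15, where that held for 46.2% of all probe sets. In L60 no member was called, nor was any probe set of the array (0%), and 1 of the 15, H2-Ea 1426202_at, had an unadjusted p under 0.05, against 3.96% of all. The L60 median was 0.30, and 5 of the 15 lay above all controls with none below, where 23.1% of all probe sets did not overlap.

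Group means rose in the order LC, L60, L84, LA for 7 of the 15 probe sets, both of H2-Aa, 2 of H2-Ab1, and those of H2-DMa, H2-DMb2 and Cd74, against 8.83% of all probe sets. The neighbours in that order were not separated by the tests. L84 against L60 gave no member call (0.0575% of all probe sets called) and 3 members with an unadjusted p under 0.05, against 6.95% of all. LA against L60 gave 1 call, H2-Eb1 (0.292% of all), and LA against L84 gave none among the members or over the array (0%), with 12 members and 2242 probe sets (9.91%) at an unadjusted p under 0.05. The H2-Eb1 call was lost without any 1 array other than LA 1. The mean of the 3 lines against LC gave no member call (0.296% of all) and 9 members at an unadjusted p under 0.05, against 12.3% of all. In the F test over the 4 genotypes 1 member, H2-Eb1, was called (adjusted p = 0.0495, 0.336% of all called), and that count was 0 with any array left out.

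Other genes of antigen loading showed no call in LA. The list of proteases and accessory genes held 12 genes, of which 7 were named alone by 10 probe sets, with a median LA difference of -0.94. Ctss, the protease that trims the invariant chain in antigen presenting cells, differed by 2.20 ± 0.581 (adjusted p = 0.149), and Ifi30, a lysosomal thiol reductase, by 1.76 (adjusted p = 0.208). Ctsl, which trims the invariant chain in thymic epithelium, differed by -1.81 (adjusted p = 0.293), and Lgmn, an endosomal protease, by -0.72 (adjusted p = 0.721). The transcription list of 11 genes and 21 probe sets had no call and a median of 0.33. Rfx5 and Rfxap, subunits of RFX, differed by -0.54 and -0.37 in LA (adjusted p = 0.643 and 0.847), and the 3 probe sets of Rfxank by -0.43, 0.75 and -0.95.

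Interferon gamma pathway genes had positive median differences in both L84 and LA. Of 20 listed genes, 18 were read by 27 probe sets, with no call in any line and medians of 1.59 in LA, 1.53 in L84 and 0.27 in L60. The mean score of the list was -0.820 to -0.474 in LC, -0.283 and -0.232 in L60, 0.399 and 0.822 in L84, and 0.383 and 0.881 in LA, so that L84 and LA overlapped each other and lay above the rest. Irf1, an interferon-induced factor that acts on a Ciita promoter, differed by 2.15 ± 0.334 in LA (adjusted p = 0.0669) and 1.48 in L84 (adjusted p = 0.262). Ifng itself differed by 0.97 in LA (adjusted p = 0.539). Among 10 costimulation genes, with 17 probe sets, there was no call in LA and a median of 1.44. Cd86, a ligand of CD28, differed by 2.11 (adjusted p = 0.124) and 0.45 on its 2 probe sets, Cd80 by -0.01 to 2.28 on 4, and Cd40 by 0.14 and -0.17 on 2.

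Among markers of cells that carry class II, 1 gene of the Langerhans and dendritic cell list was called in LA. Cd207, langerin, a marker of Langerhans cells that is not confined to them, scored -0.78, -1.12 and -0.75 in LC, -0.38 and -0.48 in L60, 0.20 and 0.08 in L84, and 1.61 and 1.60 in LA. The 4 groups stood apart in the order LC, L60, L84, LA. Cd207 rose in LA by 2.49 ± 0.127 (adjusted p = 0.00666), and its L84 difference was 1.02 (adjusted p = 0.0994). It was the single call among 16 probe sets of 13 Langerhans and dendritic cell genes, whose median difference was 1.75 in LA, -0.24 in L84 and -0.04 in L60. The mean score of that list was -0.308 to -0.0715 in LC, -0.372 and -0.167 in L60, -0.575 and -0.289 in L84, and 0.949 and 1.06 in LA. Itgax, CD11c, differed by 1.85 in LA (adjusted p = 0.0897) and 2.22 in L84 (adjusted p = 0.157).

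No macrophage, T cell or B cell marker was called in LA. The macrophage list, 21 probe sets of 15 genes, had a median of 1.32 in LA, and its mean score was -0.589 to -0.351 in LC, -0.808 and 1.13 in L60, -1.21 and 0.649 in L84, and 1.10 and 0.499 in LA, so that arrays of 1 line lay far apart. Csf1r differed by 1.41 to 1.84 on 3 probe sets (adjusted p = 0.236 to 0.371) and Cd68 by 1.08 (adjusted p = 0.552). The T cell list, 13 probe sets of 10 genes, had a median of 1.31 and mean scores of 0.935 and 0.954 in LA against -0.519 to 0.277 on the other arrays. Cd3e differed by 2.35 (adjusted p = 0.0932). The B cell list, 11 probe sets of 8 genes, had a median of 1.08, with overlapping arrays, and Cd79a differed by 0.54 (adjusted p = 0.732). The part of these cells in the class II differences was not tested. Scores also cannot show whether a marker is near zero, so the labelled tissue was not checked against absent markers. Hair shaft keratins, which mark the hair follicle of skin, fell in LA and L84: 8 of 9 probe sets were called lower in each, with medians of -2.07 and -2.13. In L84 Krt34 fell by 2.23 (adjusted p = 0.0016), Krt81 by 2.23 (adjusted p = 0.028) and Krt36 by 2.21 (adjusted p = 0.0143). In L60 none was called and the median was -1.02. Krt5, a basal keratinocyte keratin, rose in LA by 1.99 (adjusted p = 0.0455). It was the single call among 9 probe sets of 5 keratinocyte genes, whose median difference was 0.23 in LA, 1.57 in L84 and 1.16 in L60. The mean score of that list was -1.18 to -0.52 in LC, 0.294 and -0.0201 in L60, 1 and 0.583 in L84, and 0.373 and 0.0156 in LA.

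**Figure D3:**
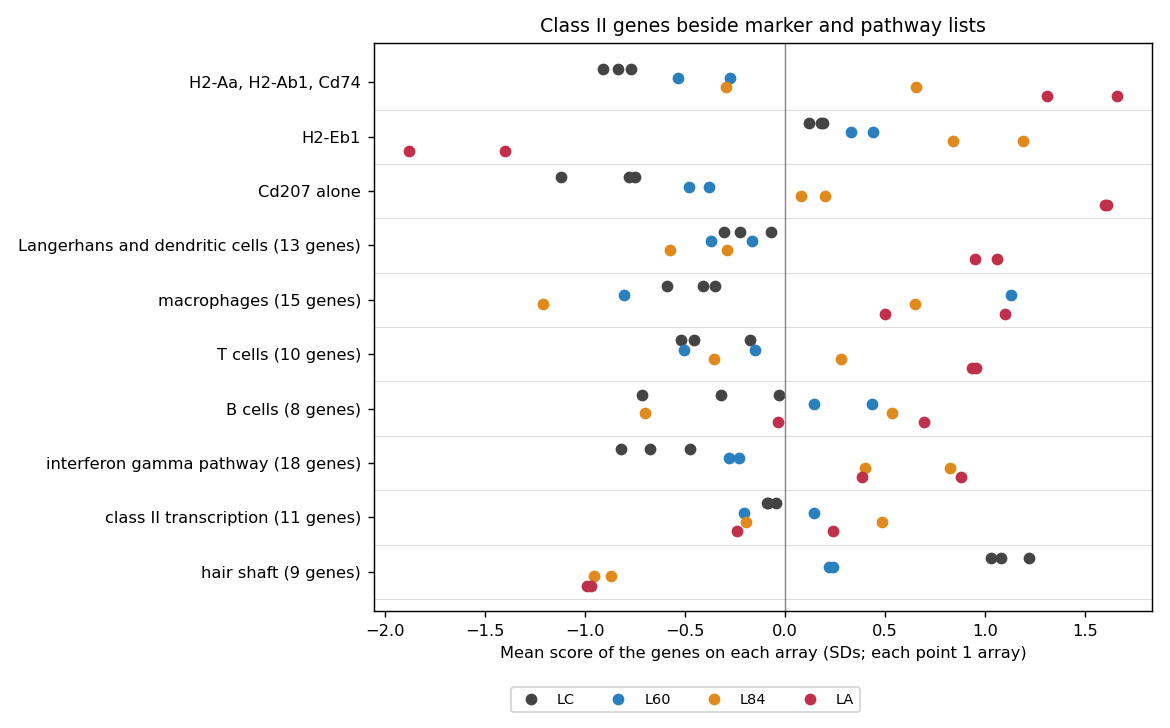
Mean score of each group of genes on every array (horizontal axis, SDs; each point 1 array, coloured by genotype), for class II genes, Cd207, cell type markers and pathway lists. The LA arrays stand highest for H2-Aa with H2-Ab1 and Cd74 (1.31 and 1.66), for Cd207 (1.60 and 1.61) and for the T cell list, while H2-Eb1 has them lowest and the interferon gamma list has L84 and LA side by side.

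By a rule of likeness, the mean of H2-Aa, H2-Ab1, H2-Eb1 and Cd74 was correlated over the 9 arrays with each of the 20380 probe sets that name 1 gene. The nearest genes outside the members were Gpm6b (0.973), Sparcl1 (0.964) and Cd34 (0.959). H2-Eb1 correlated negatively with H2-Aa 1452431_s_at (-0.723) and Cd74 (-0.655), since its LA arrays were lowest where theirs were highest. From LC to L60 and L84 its group means rose (0.16, 0.38 and 1.02), as theirs did. The mean for this rule was therefore also taken without H2-Eb1, a choice made after the data were seen. The nearest genes were then Ifitm6 (0.985), Il12rb2 (0.985), Smim7 (0.985), Prrx1 (0.982) and Usp18 (0.981). The members were ranked among the 20380 with their own gene left out of the mean. With H2-Eb1 in the mean, Cd74 ranked 249, H2-Ab1 1450648_s_at 242 and H2-Aa 1452431_s_at 367, and without it 3, 4 and 7. The second H2-Aa probe set, 1435290_x_at, ranked 70 with H2-Eb1 and 384 without. H2-DMb2 and H2-DMa ranked 242 and 243 with it, and 45 and 89 without. The H2-Ea probe sets lay far apart in both orders: without H2-Eb1, 1426202_at ranked 673, 1422891_at 9956 and 1422892_s_at 17621. Ciita 1421211_a_at ranked 1257, Ciita 1421210_at 6076, H2-Oa 1313 and H2-Eb1 17463 in that order. The 9 arrays are the same for every pair, and these correlations are descriptions.

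The opposite directions within the H2 region were not limited to the E chains. In the gene order of GRCm38.p6, 99 other measured genes lie from H2-K1 to H2-M3, with 156 probe sets, a span chosen after the values were seen. Psmb8, Psmb9, Tap1 and Ubd of the interferon gamma list are among these genes, as is Aif1 of the macrophage list. The span and those lists are therefore not separate observations. In LA against LC, 9 of the 156 were called (5.77%), 4 higher and 5 lower, against 1 in L84 (0.641%) and none in L60. H2-K1, a class I heavy chain gene, rose by 2.10 and 2.18 on 2 of its 4 probe sets (adjusted p = 0.0298 and 0.0483). Its other probe sets differed by 2.28 and 2.22 and did not pass (adjusted p = 0.0521 and 0.0805). Tnf, a cytokine gene, rose by 2.19 (adjusted p = 0.0463). Tnxb, a matrix protein gene, rose by 2.52 (adjusted p = 0.0317). Psors1c2 fell by 2.17 (adjusted p = 0.00848), and D17H6S56E-5 fell on both of its probe sets, by 2.18 and 2.10 (adjusted p = 0.0165 and 0.0158). H2-D1, a class I heavy chain gene, gave opposite readings as H2-Ea did. Of its 9 probe sets, 2 had both LA arrays above the 7 others and 3 had them below, 2 of these called (-1.98 and -1.96, adjusted p = 0.0214 and 0.0385). The called probe sets of H2-K1 and H2-D1 are _x_at sets, which may bind related transcripts. H2-Ea and H2-D1 were the only genes of the span, members included, with LA above all others on 1 probe set and below all others on another. Only a gene with more than 1 probe set can show this, and H2-D1 had the most in the span. How many genes of the whole array show it was not counted.

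**Figure D4:**
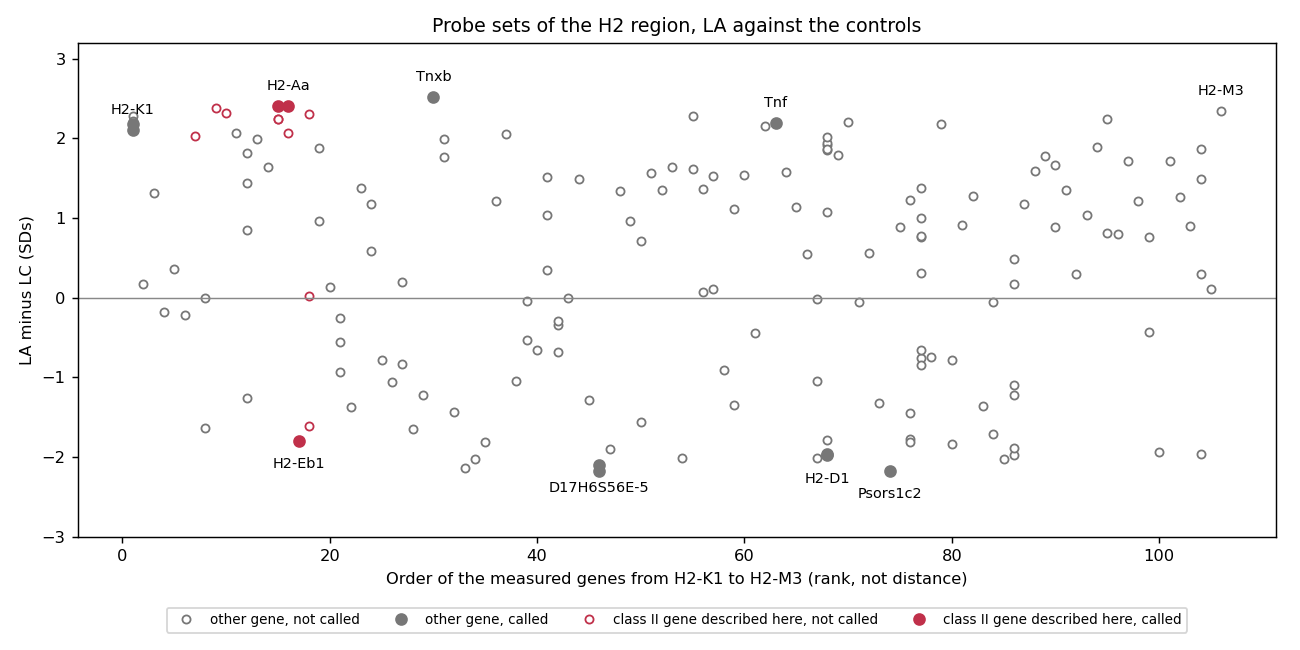
LA minus LC difference (vertical axis, SDs of the probe set over 9 arrays) of every probe set of the measured genes from H2-K1 to H2-M3, in gene order (horizontal axis, rank and not distance), with class II genes in red and filled points for calls. Calls of both signs lie along the span, with H2-Eb1 (-1.8) beside H2-Aa (2.40).

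Some arrays of the same genotype differed in the spread of their scores or in 18S signal. LA 2 and L84 1 had the widest scores over all probe sets (SD 1.32 and 1.20, against 0.763 to 0.907 on the others). LC 1, L60 1 and L84 1 had mean scores of 1.13, 2.09 and 0.339 on the 18S control probe sets, against -0.642 to -0.528 on the others. LC 1, L60 1 and L84 1 all carry replicate number 1, and so does LA 1, whose 18S mean was low (-0.625). Leaving out LA 2 and L84 1, or the 3 arrays high in 18S, kept 1 array in some groups. The LA differences were then 2.46 and 2.48 for H2-Aa 1452431_s_at, and 2.64 and 2.37 for H2-Ab1 1450648_s_at. For H2-Eb1 they were -1.56 and -1.79. The part of these arrays in the results was not tested.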

How the data were processed

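Biotin-labelled RNA from skin was hybridised to 9 Affymetrix arrays. RMA, with no version, is named in the submitters' processing notes. The values the authors deposited are a score: means of probe sets lay within 1.86e-07 of 0 and SDs within 7.54e-08 of 1, and scores ran from -2.66 to 2.67. Whether they were logged first is not given in the sources used here.

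Of 22690 probe sets, 64 Affymetrix controls were left out. Among the rest, 20380 named 1 gene in the platform annotation, 691 named several and 1555 none. The GRCm38.p6 gene table matched 20351 by gene ID and changed 0 symbols. It served for names and gene order, and RefSeq windows of the same assembly for promoters.

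A linear model of the 4 genotypes was fitted to all 9 arrays (limma 3.58.1, R 4.3.3, with 5 residual degrees of freedom) without variance moderation, since standardising each probe set removes the variances that moderation compares. Each line was compared with LC and with each other line, their mean was compared with LC, and all 4 genotypes entered an F test, with Benjamini-Hochberg adjustment over 22626 probe sets. The script was tested on simulated data. Alternatives were each array left out, the replicate number as a block, moderated variance, array medians set to 0, only the groups compared, 3 arrays high in 18S left out, gene means and, added later, the 2 widest arrays left out. Every member probe set was named. From each gene list, up to 3 probe sets called in a line against LC were named, besides a fixed set of genes. The members and lists were chosen with earlier results of these data known. The sources do not state that replicate numbers pair the pools, so the numbers were not taken to pair them. Deviations of same-numbered arrays from their group means correlated at -0.0787 to 0.339, which does not settle whether they are paired. In a group of 2 arrays the deviations are opposites, so 2 such groups give the same value for both of their pairs.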

Additional observations from a re-analysis of the deposited data

Results flagged for a closer look

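H2-Eb1 differed between LA and L60 in their difference from the controls, by a test of the difference itself: LA minus L60 was -2.02 (limma, adjusted p = 0.0471), from -1.8 for LA against LC and 0.22 for L60 against LC. Both LA arrays lay below all controls and both L60 arrays above all controls.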

How the results depend on the processing

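Of the alternative values of single differences, 618 kept their direction and their side of the threshold or moved by less than the spread between arrays, 45 lost their call in the same direction, 42 moved further and 0 reversed a called difference. Only the 4 called LA differences had a call to lose. H2-Aa 1452431_s_at stayed called in 5 of 16 alternatives and H2-Ab1 1450648_s_at in 3 of 16. Cd74 stayed called in 4 of 15 and H2-Eb1 in 5 of 15. The count of called members in LA against LC, 4 of 15, was 0 with the replicate number as a block and 0 with moderated variance. It was also 0 with any LC array left out and with only the groups compared. In that last setting 44 probe sets of the array were called, against 257. The count also changed under some settings that left 1 array in a group. The LA against L60 count, 1, was 0 with the block, with moderated variance, without the 18S arrays and with only the groups compared, and 0 to 1 with 1 array left out. The LA against L84 count, 0, was 1 without the 2 widest arrays. The F test count, 1, was 0 with the block, with moderated variance, without the 18S arrays, without the 2 widest arrays and with any 1 array left out. Under the replicate block, H2-Aa differed by 2.36 (adjusted p = 0.252), H2-Ab1 by 2.4 (0.261), Cd74 by 2.39 (0.276) and H2-Eb1 by -1.83 (0.261) in LA, and the arrays were not shown to be paired. With block or moderation the calls over all probe sets in LA against LC were 0, against 257. Averaged over probe sets, H2-Aa (2.24, adjusted p = 0.06) and H2-Ab1 (2.3, 0.0582) lost their calls. These gene means were adjusted over 12393 genes in place of all probe sets. H2-Eb1 and Cd74 have 1 probe set each, so only this adjustment changed for them. Their differences stayed at -1.8 and 2.45, and their adjusted p fell to 0.0202 and 0.0347. The causes of the other changes with processing were not tested. Signal over background cannot be read from scores.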
